A study of Mus musculus with 167 samples.

Results

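LAT tumours were the asbestos-induced tumours of mice whose father came from LAT, a line of the Collaborative Cross, a panel of inbred mouse lines bred from a shared set of founder strains. They were chosen by their strain label. Of 167 tumours from 119 mice of 35 strains, 9 were labelled LAT, and 7 of these, from 5 mice, were used. The mice are named LAT-A2, LAT-D2, LAT-D3, LAT-E2 and LAT-F5. LAT-D3 was represented by 3 tumours summed into 1 profile and the other mice by 1 tumour each. LAT-A2 and LAT-D3 were labelled below median survival, and LAT-D2, LAT-E2 and LAT-F5 above it.

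The LAT mice were set against 98 tumours of 70 mice from 16 further strains, namely Boon, CC035, CC040, CC044, CC046, CC053, CC059, CC060, CIS, KAV, LOX, MEE, Rogan, TAS, VUX and YID. Of these 70 mice, 49 were labelled above and 21 below median survival. In both groups the mother was a MexTAg mouse and the father a Collaborative Cross male. The MexTAg transgene places the large T antigen of SV40 behind the promoter of mesothelin, and every mouse compared here came from this cross. All had received 2 intraperitoneal injections of 3 mg crocidolite asbestos and no other treatment. No asbestos-free or transgene-free animal and no normal mesothelium was among the samples, and the sources used here give neither age nor sex of the mice. Another 44 mice of 18 strains stood outside the comparison and are used below only as values.

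Mesothelioma arises from the mesothelium, the thin cell layer that lines the body cavities, and asbestos fibres are its main known cause. Bap1 encodes a nuclear deubiquitinase that removes ubiquitin from histone H2A and is among the genes most often lost in human mesothelioma, together with CDKN2A and NF2. Large T antigen binds and inactivates the p53 and Rb proteins. Processed pseudogenes are copies of messenger RNAs that were pasted back into the genome, and inbred lines can differ in which copies they carry.

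Library totals ran from 20547989 to 25834175 counts in LAT tumours and from 11138491 to 35399287 in tumours of the other strains, and a floor of 3 counts corresponded to 0.146 CPM (counts scaled to the TMM-adjusted library total) in the shallowest LAT mouse and 0.269 CPM in the shallowest other mouse. The floor covers counting error only. A further 2 LAT tumours, a second tumour of LAT-D3 and a second of LAT-F5, were left out with 4 tumours of other strains because their strain was in doubt. Genes typical of liver, pancreas, fat, muscle and other neighbouring tissues took over 1% of counts in 18 libraries of the comparison, none of them LAT. Of the defining mesothelial markers, Calb2 (calretinin) was below the floor of 3 counts in LAT, between 0 and 0.0969 CPM, as was its median of 0.0429 CPM in the other mice. Wt1 was between 0.0969 and 9.93 CPM in LAT, against a median of 6.91 in the other mice, and Msln (mesothelin) between 2.61 and 114 CPM, against a median of 16.9. The keratin genes Krt8 and Krt18 were present in every LAT mouse, at 6.40 to 234 CPM and 81.1 to 423 CPM, against medians of 50.7 and 49.2 CPM. The labels do not say that mice came from separate litters, so p-values measure the spread between these mice.

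LAT tumours were set apart from those of all 16 strains by a small group of gene copies. In 9 of 20080 genes tested (0.0448%), every LAT mouse lay above every other mouse, and in 0 genes (0%) did every LAT mouse lie below. The clearest was Rpl28-ps3, a processed pseudogene of Rpl28, which encodes a protein of the large ribosomal subunit. Of the 9 genes, 8 were annotated as pseudogenes and 1, Gm9008, as protein coding, and 6 reached 5 CPM in the LAT mean.

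Rpl28-ps3 (chr4:126069867-126070259, GRCm38, minus strand, its whole length annotated as a single pseudogene exon) differed from Rpl28 (chr7:4792874-4795066, plus strand) in 3 of 393 aligned bases, an identity of 99.2%. Rps12-ps10 (chr2:122219993-122220391, plus strand) differed from Rps12 (chr10:23785183-23787275, minus strand) in 4 of 399 aligned bases. The stretches that hold all of these differences are printed because, over the aligned bases, only these differences tell reads of a copy and of its parent apart. They come from the GENCODE M21 transcripts of GRCm38, run 5′ to 3′ in the sense of the transcript over aligned bases 129 to 298 of the first pair and 63 to 306 of the second, counted from the first aligned base, and capitals mark the bases at which the members of a pair differ.
Rpl28-ps3: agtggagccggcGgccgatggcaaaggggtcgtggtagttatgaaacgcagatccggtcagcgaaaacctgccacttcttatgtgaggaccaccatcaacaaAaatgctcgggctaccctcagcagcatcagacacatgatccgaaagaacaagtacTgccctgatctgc
Rpl28: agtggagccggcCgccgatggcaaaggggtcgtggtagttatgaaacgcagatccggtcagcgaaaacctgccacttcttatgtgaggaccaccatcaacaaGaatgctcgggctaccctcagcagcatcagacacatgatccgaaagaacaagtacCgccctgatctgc
Rps12-ps10: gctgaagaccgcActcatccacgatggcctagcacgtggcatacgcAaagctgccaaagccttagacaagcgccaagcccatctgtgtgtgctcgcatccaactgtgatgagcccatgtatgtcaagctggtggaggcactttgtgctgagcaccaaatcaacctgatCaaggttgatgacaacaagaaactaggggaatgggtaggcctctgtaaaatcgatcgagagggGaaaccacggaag
Rps12: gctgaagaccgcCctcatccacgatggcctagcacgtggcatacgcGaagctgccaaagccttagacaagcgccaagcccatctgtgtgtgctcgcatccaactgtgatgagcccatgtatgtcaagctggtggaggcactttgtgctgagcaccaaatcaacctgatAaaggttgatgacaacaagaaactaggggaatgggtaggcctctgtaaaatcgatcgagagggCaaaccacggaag

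Rpl28-ps3 stood at 51.7 CPM in LAT-A2, 23.9 in LAT-D2, 76.3 in LAT-D3, 44.2 in LAT-E2 and 39.2 in LAT-F5, against 0 to 1.56 CPM, with a median of 0.154, in the 70 other mice. Every LAT mouse was high and every other mouse was near 0. The log2 difference was 7.96 ± 0.37 (SE), with an adjusted p of 4.23e-26 in edgeR's quasi-likelihood test with Benjamini-Hochberg adjustment. Of the counts given to copy and parent together, the copy took 10.9% to 23.1% in LAT mice, against a median of 0.0717% and a highest value of 1.02% in the others. Rpl28 itself did not pass the test (log2 difference 0.43, adjusted p = 0.537 in edgeR).

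Rps12-ps10, a copy of the small-subunit gene Rps12, stood at 41.2, 8.98, 2.22, 15.9 and 8.74 CPM in LAT-A2, LAT-D2, LAT-D3, LAT-E2 and LAT-F5, against 0 to 0.706 CPM in the other mice. All 5 LAT mice lay above all others, and LAT-D3 was the lowest of them. The log2 difference was 6.73 ± 0.37 (edgeR adjusted p = 2.23e-22). Rpsa-ps2, a copy of Rpsa (ribosomal protein SA, also the laminin receptor) on chromosome 10, stood at 128, 82.4, 324, 65.05 and 86.5 CPM in the same order, against 0.173 to 49.8 CPM, median 1.46, in the other mice. The highest other mouse, LOX-E4, came nearest to LAT, and the log2 difference was 5.98 ± 0.37 (edgeR adjusted p = 3.15e-20).

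The remaining genes without overlap were at lower levels than Rpl28-ps3 and Rpsa-ps2. AC122453.1, a copy of Rpsa on chromosome 17, stood at 8.21 to 40.9 CPM in LAT mice and 0 to 3.42 CPM in the others. Hspd1-ps3, a copy of the mitochondrial chaperonin gene Hspd1, stood at 9.17 to 23.3 CPM against 0 to 4.23 CPM. Gm9008, annotated as protein coding and matching the ubiquitin ligase gene Rnf26 in all but 17 mismatched and 5 gapped positions of 2322, stood at 4.32 to 8.58 CPM against 0 to 1.15 CPM. Below 5 CPM lay Tpd52-ps, a copy of Tpd52, Gm34144, a pseudogene matching part of Fryl, and Catspere1, an unprocessed pseudogene beside Catspere2 on chromosome 1. Tpd52-ps stood at 0.560 to 1.02 CPM in LAT mice, against 0 to 0.525 CPM in the others. Gm34144 stood at 0.237 to 0.887 CPM against 0 to 0.195 CPM, and Catspere1 at 1.03 to 2.67 CPM against 0 to 0.890 CPM. The separation of Tpd52-ps and Gm34144 was thus narrow, and for Gm34144 it lay near the floor of 3 counts. None of the parents Rps12, Rpsa, Hspd1, Rnf26, Tpd52 and Fryl passed the test, and their adjusted p in edgeR ran from 0.627 to 0.984, whereas Catspere2 was itself higher in LAT.

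**Figure D1:**
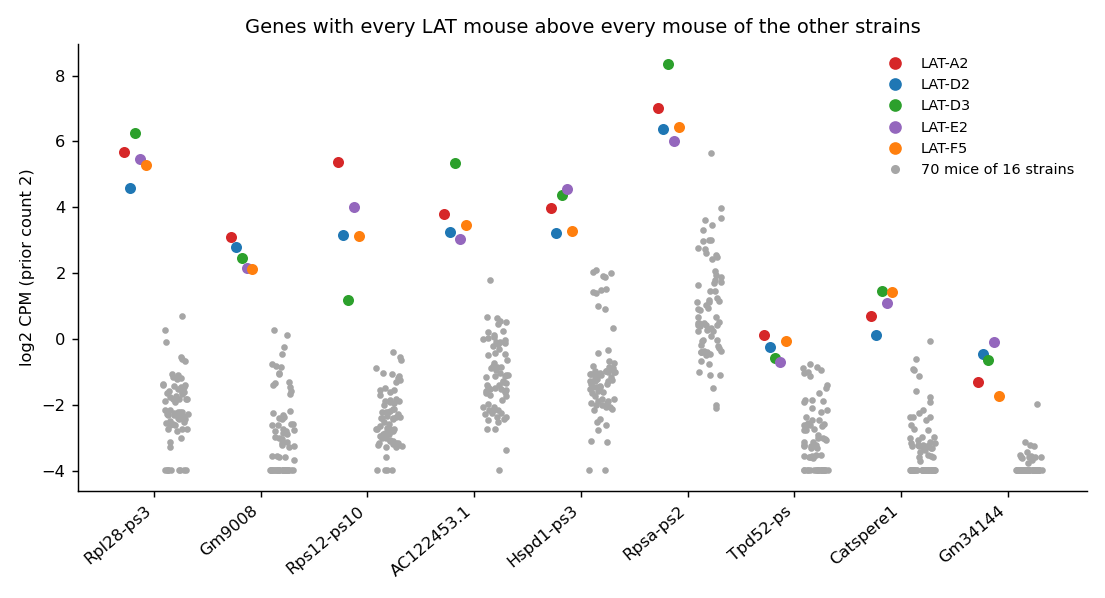
Level of the 9 genes in which every LAT mouse lay above every mouse of the 16 other strains, as log2 CPM with a prior count of 2 (vertical axis), for each gene (horizontal axis). Coloured points at the left of each column are the 5 LAT mice, grey points at the right the 70 other mice, and the widest gap is that of Rpl28-ps3.

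Some mice of the 18 strains outside the comparison also had counts for these copies at the level of LAT. At or above the lowest LAT mouse stood 2 of 44 such mice for Rpl28-ps3, both of the strain Piping. The number was 2 of 44, both of CC081, for Hspd1-ps3, and 4 of 44, of CC017 and WOB2, for Rps12-ps10. It was 8 of 44 for Gm9008, 17 of 44 for Rpsa-ps2 and 19 of 44 for AC122453.1. No strain outside the comparison was named for all 3 of Rpl28-ps3, Hspd1-ps3 and Rps12-ps10. The doubtful second tumour of LAT-D3 had 0.467 CPM of Rpl28-ps3, against 54.02, 74.9 and 100.2 CPM in the 3 used tumours of that mouse. The doubtful second tumour of LAT-F5 had 4.12 CPM, against 38.5 CPM in the tumour that was used.

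Over all genes, 335 of 20080 differed between LAT and the mean of the 16 strains (1.67%), 292 higher in LAT (1.45%) and 43 lower (0.214%). Pseudogenes made up 38.01% of the higher and 72.1% of the lower calls, against 10.6% of the genes tested, and 163 of the higher and 12 of the lower calls were protein coding. The limma-voom test called 169 genes (0.842%), 116 higher (0.578%) and 53 lower (0.264%). Both tests called 137 genes in the same direction (0.682%), 105 higher (0.523%) and 32 lower (0.159%). DESeq2 turned the split round, with 495 calls (2.59%), 193 higher (1.01%) and 302 lower (1.58%) among 19128 genes with an adjusted p. With all other mice as 1 group, edgeR called 45 genes higher and 5 lower, and with the 6 doubtful tumours kept it called 12 lower. Many edgeR calls rested on single LAT mice: 70 of the 292 higher calls held in all 5 fits that left out 1 LAT mouse and 222 were lost in at least 1, and 19 of the 43 lower calls held in all 5. In 51 of the 292, fewer than 3 of the 5 LAT mice lay above the median of the other mice.

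Of 17560 protein-coding genes tested, edgeR and limma-voom both called 31 higher in LAT and 5 lower. Fewer also had a log2 difference of at least 1, at least 5 CPM and every LAT mouse on the same side of the others' median. Predicted genes were left out too. These limits excluded, for example, Sycp1 and Hjurp, called higher, and Srp54c, Lipo2 and Il11ra2, called lower. Genes that met them and were higher included a bicarbonate transporter, a sperm channel subunit, a membrane-bending adaptor and a phosphodiesterase. A blood hormone and a subunit of a histone chaperone were also among them, and lower was a copy of a glycolytic gene. With a further gene that has no annotation here, 13 genes higher in LAT and 1 lower met all limits on level, size and direction, and the 12 of lowest p and the 1 lower gene are described. In bulk tissue, fewer cells of a type and less RNA per cell cannot be told apart.

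Slc4a5, a sodium bicarbonate cotransporter (chr6:83219828-83304945), stood at 2.28, 7.75, 9.88, 0.373 and 44.7 CPM in LAT-A2, LAT-D2, LAT-D3, LAT-E2 and LAT-F5, against 0 to 9.70 CPM, median 0.248, in the other mice. LAT-F5 and LAT-D3 exceeded all other mice, while LAT-E2 lay close to their median. The highest mean of another strain was 7.82 CPM in CC046, above LAT-A2 and LAT-E2. The log2 difference was 5.07 ± 0.46 (edgeR adjusted p = 6.38e-13). Wdr54, a WD-repeat gene that lies close to Slc4a5 on chromosome 6 (83149361 to 83156397), ran from 6.54 to 19.4 CPM in LAT, against 1.00 to 12.7 CPM, with a log2 difference of 1.19 ± 0.31 (edgeR adjusted p = 0.0238). Its call was lost in 2 of the 5 fits without a LAT mouse, with adjusted p up to 0.388.

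Catspere2, a subunit of the sperm calcium channel CatSper (chr1:177983423-178172704), stood at 3.49, 4.47, 11.1, 9.99 and 5.51 CPM in LAT mice in the same order, against 0.0621 to 6.47 CPM. Only 3 of the 70 other mice reached the lowest LAT mouse. The log2 difference was 3.15 ± 0.36 (edgeR adjusted p = 1.55e-09). Its level was low in both groups. Catspere1 and Catspere2 share 90.2% of their aligned bases, so reads of either could be counted for the other.

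Pianp, which encodes a ligand of the inhibitory receptor PILRα, stood at 67.1, 81.7, 12.4, 12.04 and 46.1 CPM, against 0.491 to 78.4 CPM, median 3.81. All LAT mice lay above the median of the others but overlapped with 19 of them. The CC040 mean of 67.4 CPM exceeded the LAT mean of 43.9 CPM, so LAT was not the highest strain for Pianp. The log2 difference was 2.85 ± 0.37 (edgeR adjusted p = 4.72e-08). Baiap2l1, an adaptor that binds and bends membranes at actin protrusions, stood at 302, 28.9, 205, 139.8 and 492 CPM, against 0.836 to 432 CPM, median 10.9. LAT-D2 was the lowest of the LAT mice, LAT-F5 lay above every other mouse, and the log2 difference was 3.44 ± 0.63 (edgeR adjusted p = 0.000233). Gdpd5, a glycerophosphodiester phosphodiesterase, stood at 107, 92.9, 24.6, 92.2 and 107 CPM, against 4.71 to 86.0 CPM, median 22.6. In it 4 LAT mice exceeded all others while LAT-D3 lay near their median, with a log2 difference of 1.70 ± 0.34 (edgeR adjusted p = 0.000919).

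The remaining named genes overlapped more. Erfe, the erythroferrone hormone that lowers hepcidin, stood at 15.8, 24.01, 16.7, 2.61 and 2.52 CPM in LAT mice, against 0 to 23.3 CPM, with a log2 difference of 2.33 ± 0.51 (edgeR adjusted p = 0.00302). Gper1, a membrane oestrogen receptor, was high in LAT-D2 and LAT-F5, at 18.4 and 17.9 CPM, and 2.80 to 4.02 CPM in the rest, against 0 to 17.6 CPM (log2 difference 2.13 ± 0.52, edgeR adjusted p = 0.0109). Chaf1b, a subunit of the chromatin assembly factor that loads histones behind the replication fork, stood at 63.9 and 59.03 CPM in LAT-A2 and LAT-E2, above all others, and at 20.1 to 28.2 CPM in the rest, against 3.63 to 51.9 CPM (log2 difference 1.04 ± 0.26, edgeR adjusted p = 0.0176). Paqr6, a membrane progestin receptor, and Zik1, a zinc-finger gene, had log2 differences of 2.21 ± 0.52 and 1.16 ± 0.30 (edgeR adjusted p = 0.00807 and 0.0252). The calls of Gper1, Chaf1b and Zik1 each held in 3, and those of Erfe and Paqr6 in 4, of the 5 fits without a LAT mouse. The gene ENSMUSG00000118653, for which the annotation used here gives no name or position, stood at 4.26 CPM in LAT-A2 and 32.6 to 59.4 CPM in the rest, against 0 to 226 CPM, median 0.444 (log2 difference 4.26 ± 0.89, edgeR adjusted p = 0.00167, DESeq2 adjusted p = 0.0901). For this gene the CC040 mean of 57.3 CPM exceeded the LAT mean of 36.5 CPM.

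**Figure D2:**
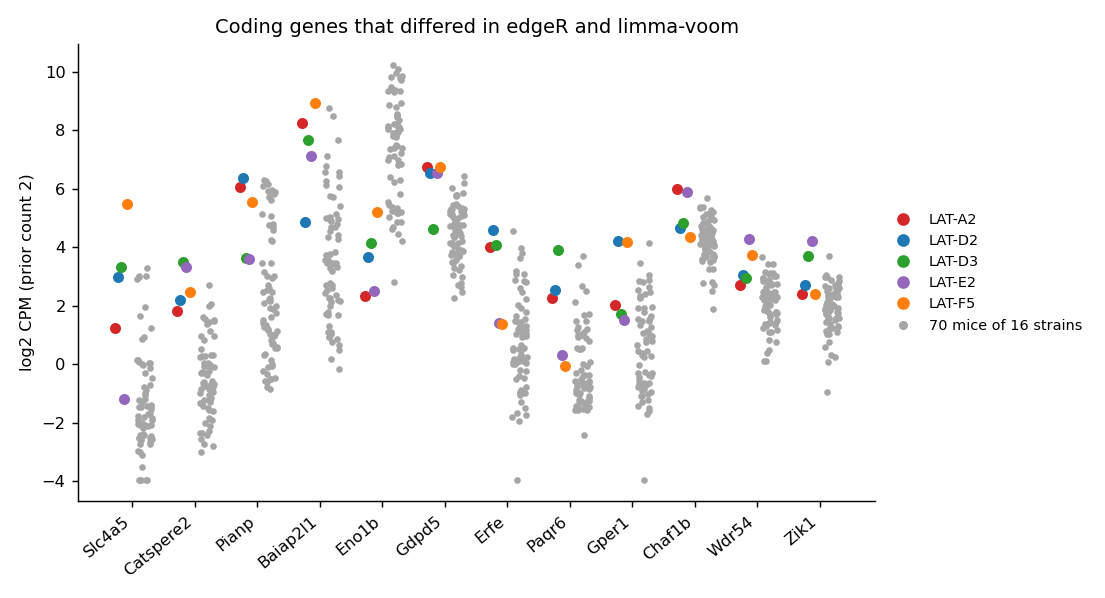
Level of the 12 named coding genes with a symbol, as log2 CPM with a prior count of 2 (vertical axis), ordered by adjusted p (horizontal axis). Coloured points at the left of each column are the 5 LAT mice and grey points at the right the 70 other mice, and all genes shown except Eno1b are higher in LAT.

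The 1 lower gene that met all these limits was Eno1b, a near-identical copy of the glycolytic enzyme gene Eno1. It stood at 4.94, 12.7, 17.6, 5.60 and 37.1 CPM in LAT-A2, LAT-D2, LAT-D3, LAT-E2 and LAT-F5, against 6.94 to 1207 CPM, median 228, in the other mice. Of the 70 others, 11 lay at or below the highest LAT mouse, and the log2 difference was -3.84 ± 0.75 (edgeR adjusted p = 0.000668). CC053 was also low, with a mean of 26.7 CPM, against 15.6 CPM in LAT. Eno1b and Eno1 differed in 9 of 1736 aligned bases, so their counts are uncertain. Of the counts given to the pair, Eno1b took 0.424% to 1.78% in LAT mice, against a median of 28.995% and a highest value of 59.9% in the others. Eno1 had a log2 difference of 1.09 ± 0.28 (edgeR adjusted p = 0.0238, limma-voom 0.146), and the sum of both was 545.5 to 2080 CPM in LAT, median 1165, against 151.9 to 3174 CPM, median 787.

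Rps2, a gene of the small ribosomal subunit, showed the same arrangement with its copies Rps2-ps10 and Rps2-ps13. Rps2-ps10 took 0.345% to 3.09% of the counts of the pair in LAT mice, against 0.0885% to 42.2%, median 15.9%, in the others. Rps2-ps13 took 0.0748% to 0.552%, against 0.0675% to 59.03%, median 1.93%. For both copies the lowest share thus lay in a mouse of another strain. Rps2 stood at 1618, 1194, 1946, 1563 and 1583 CPM in LAT-A2, LAT-D2, LAT-D3, LAT-E2 and LAT-F5, against 174 to 2561 CPM, median 835, with a log2 difference of 0.89 ± 0.21 (edgeR adjusted p = 0.00754). The range of LAT lay inside that of the others, and the CC046 mean of 1965 CPM exceeded the LAT mean of 1581 CPM. Rps2 was the only call among 20 ribosomal protein genes, but all 20 had a log2 difference above 0, with a median of 0.20, against 0.01 over all genes tested.

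**Figure D3:**
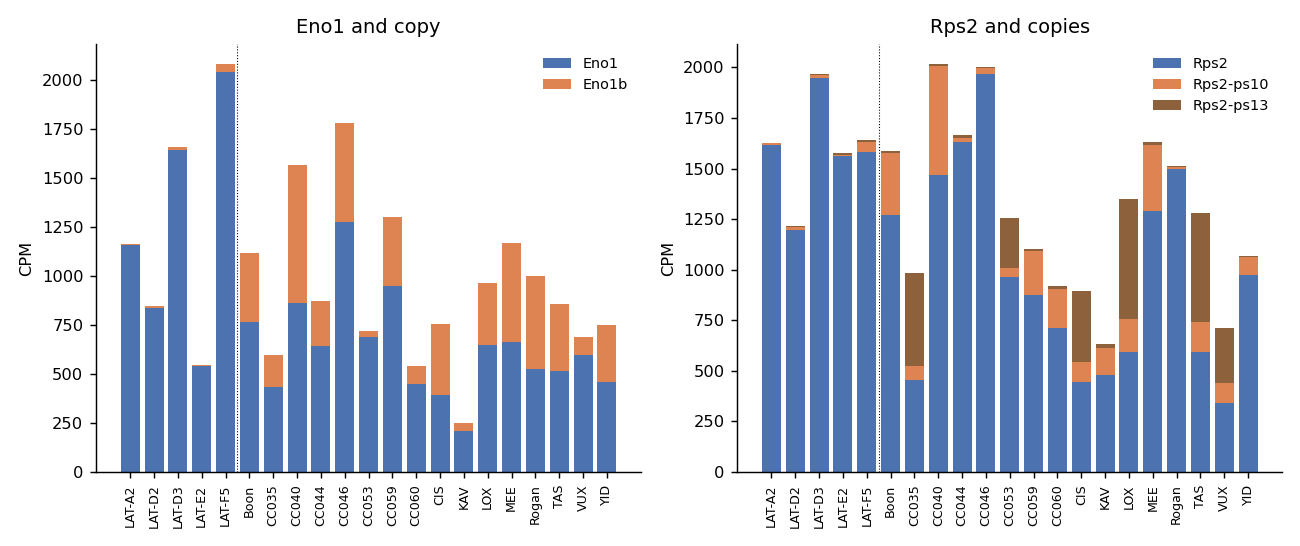
Stacked CPM (vertical axis, from 0) of Eno1 with its copy Eno1b and of Rps2 with its copies Rps2-ps10 and Rps2-ps13, for each LAT mouse at the left of the dotted line and for the mean of each of the 16 other strains at its right. The copies hold a small part of the counts in all 5 LAT mice and a large part in several other strains.

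Bap1 was measured as the marker gene of the comparison. It was not low in LAT tumours: it was modestly higher than in the other strains, with overlap, and LAT had the highest strain mean. Bap1 (ENSMUSG00000021901, chr14:31251450-31259944, GRCm38) stood at 83.1 CPM in LAT-A2, 63.9 in LAT-D2, 87.5 in LAT-D3, 106.3 in LAT-E2 and 58.04 in LAT-F5, against 35.5 to 86.7 CPM, median 61.5, in the other mice. LAT-E2 and LAT-D3 exceeded all others, LAT-F5 lay below their median, and 42 of the 70 reached at least the lowest LAT mouse.

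The log2 difference of Bap1 was 0.43 ± 0.11 (edgeR adjusted p = 0.0137). The call was lost in limma-voom (adjusted p = 0.0517) and held in DESeq2 (adjusted p = 0.0240). Of the 5 fits without a LAT mouse, 2 called it, and it was lost without LAT-A2 (adjusted p = 0.0606), LAT-D3 (0.0935) or LAT-E2 (0.330), all from edgeR. The mean was 79.8 ± 19.4 CPM in LAT (SD, n = 5). Next in order came Rogan at 73.7 ± 9.57 CPM (n = 4), CC046 at 72.5 ± 7.91 CPM (n = 3) and CC044 at 70.5 ± 10.2 CPM (n = 7), which differ from LAT by less than its SD, and KAV was lowest at 37.7 ± 3.31 CPM (n = 3). The doubtful tumours had 118 CPM in LAT-D3 and 56.7 CPM in LAT-F5.

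**Figure D4:**
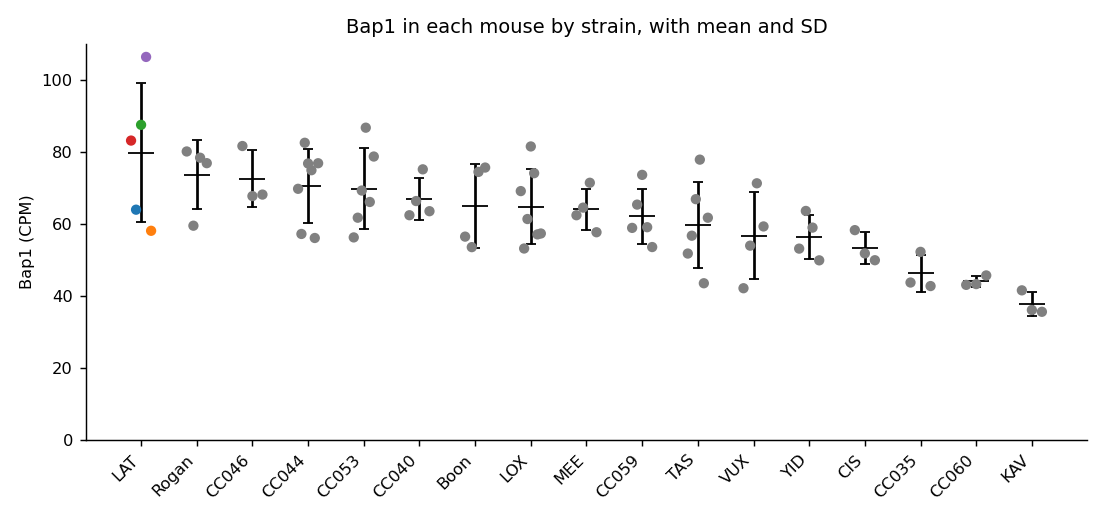
Bap1 in CPM (vertical axis, from 0) in each mouse, by strain, with LAT at the left and the 16 other strains in falling order of their mean. Points are mice, coloured for LAT, and black marks are the mean and SD; the LAT mean of 79.8 CPM is the highest and its mice spread over 58.04 to 106.3 CPM.

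None of the 20 tested genes nearest to Bap1 on chromosome 14, 10 on each side, passed in edgeR, limma-voom or DESeq2, although 3 had an unadjusted p under 0.05 in edgeR. Their median log2 difference was 0.10, in a range of -1.41 to 1.86. Of 11 genes of Bap1 and its partners in the deubiquitinase complex, Bap1 was the only call in edgeR, with a median log2 difference of 0.11. With Bap1, 4 of the 11 were higher at an unadjusted p under 0.05 in edgeR, against 1436 of all 20080 genes tested. In 8 of the 11 the highest LAT mouse was LAT-E2. Asxl1 and Asxl2, which activate Bap1, had log2 differences of 0.11 and -0.13, and Hcfc1, a transcription cofactor bound by Bap1, 0.48 (edgeR adjusted p = 0.169). Of 22 genes of the Polycomb complexes PRC1 and PRC2, edgeR and limma-voom called 0, with 1 at an unadjusted p under 0.05 in edgeR. The ubiquitin mark that Bap1 removes is placed by PRC1.

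Among other tumour suppressors of mesothelioma, Cdkn2a and Mtap varied widely among the LAT mice. Cdkn2a, which encodes the cell cycle inhibitors p16 and p19Arf, stood at 0.339, 3.80, 404, 242 and 3.75 CPM in LAT-A2, LAT-D2, LAT-D3, LAT-E2 and LAT-F5, against 0.144 to 580.2 CPM, median 4.23. It was high in LAT-D3 and LAT-E2 and low in the other LAT mice, with a log2 difference of 2.96 ± 0.87 (edgeR adjusted p = 0.0645). Mtap, the methylthioadenosine phosphorylase gene next to Cdkn2a, stood at 4.17, 8.19, 187, 114 and 343 CPM, so that LAT-F5 was high for Mtap while low for Cdkn2a (edgeR adjusted p = 0.207). Trp53 stood at 23.2 CPM in LAT-D3 and 85.5 to 146.9 CPM in the other LAT mice, against 6.00 to 291 CPM, and Nf2, encoding the Hippo regulator merlin, at 83.9 to 147.6 CPM against at most 160.7 CPM (edgeR adjusted p = 0.984 and 0.559). Of 19 tumour suppressor genes Bap1 alone passed, 4 with Bap1 were higher at an unadjusted p under 0.05 in edgeR, and the median log2 difference was 0.05.

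Each LAT mouse carried a run of neighbouring genes that were raised together, at a different place in each. The runs were found after the values had been seen, by scanning 11076 protein-coding genes with a median of at least 5 CPM, in chromosome order, for windows of 5 genes whose median log2 ratio to the median of all 75 mice was at least 2, and trimming the ends to genes at a log2 ratio of at least 1. LAT mice held 5 such runs, 1 each, against 262 runs in 59 of the 70 other mice, with a median of 2.5 per mouse. The runs of other mice included neighbouring members of a gene family, such as the Gimap, Ifit, Gbp and H2 genes. They also included runs in TAS-I1, the mouse with the highest summed level of hepatocyte genes. The scan does not tell such runs from others. Of the 292 genes called higher, 19 lay in these runs (9 in that of LAT-D3, 5 in LAT-F5, 3 in LAT-E2, 2 in LAT-A2 and 0 in LAT-D2). DNA copy number was not measured, and its part in these runs was not tested.

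In LAT-D3 the run covered 14 genes over 2.73 Mb of chromosome 9 (5308828 to 8042823), with a median log2 ratio of 5.26. It held Yap1, the transcriptional coactivator restrained by the Hippo pathway, Birc2 and Birc3, inhibitors of apoptosis, the caspase genes Casp4 and Casp12, and a group of matrix metalloproteinase genes. Yap1 stood at 7614 CPM in LAT-D3 and at 124, 104, 212 and 109.7 CPM in LAT-A2, LAT-D2, LAT-E2 and LAT-F5, against 7.59 to 10561 CPM, median 135, in the other mice. LAT-D3 alone was high among LAT mice. The 4 highest other mice were LOX-A3 at 10561 CPM, CC053-A1 at 9194, LOX-F2 at 3772 and CC059-B1 at 2948, and the next lay at 277 CPM.

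Yap1 passed in edgeR (log2 difference 2.96 ± 0.63, adjusted p = 0.00215) but not in limma-voom (adjusted p = 0.751) or without LAT-D3 (edgeR adjusted p = 0.886). All 3 used tumours of LAT-D3 shared the high level, at 9971, 6269 and 6299 CPM, while the doubtful tumour of that mouse had 126 CPM. In LAT-D3 Birc2 stood at 1597 CPM, Birc3 at 1782 CPM and Casp12 at 1528 CPM, against medians of 42.3, 45.8 and 30.1 CPM in the other mice. For Casp12 no other mouse exceeded 384.5 CPM. Mmp13, inside the same run, was not raised in LAT-D3 (23.8 CPM, against a median of 18.3 CPM in the others).

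Genes known as targets of Yap1 and its relative Taz gave no call in edgeR, limma-voom or DESeq2, with 0 of 14 at an unadjusted p under 0.05 in edgeR and a median log2 difference of 0.43. LAT-D3 was the highest LAT mouse in 9 of the 14. Amotl2, an angiomotin family gene, stood at 527 CPM in LAT-D3 and 25.03 to 95.5 CPM in the other LAT mice, against 9.83 to 311 CPM in the other strains, so LAT-D3 was above all. Ccn1, a secreted matrix protein gene, stood at 416 CPM in LAT-D3 and 59.9 to 142 CPM in the other LAT mice, against 11.5 to 666 CPM, and Ankrd1 at 209.6 CPM in LAT-D3 and 3.03 to 72.5 CPM in the other LAT mice, against 0.141 to 536 CPM. Ccn2, a further target, was not high in LAT-D3, at 103 CPM, and its highest LAT value was 161.4 CPM in LAT-D2.

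In LAT-F5 the run held 6 genes over 0.363 Mb of chromosome 3 (102995708 to 103358775), among them Nras, Bcas2 and Trim33, with a median log2 ratio of 3.25. Nras, a RAS GTPase of the MAP kinase pathway, stood at 1329.8 CPM in LAT-F5 and at 110.1, 114, 142 and 128 CPM in LAT-A2, LAT-D2, LAT-D3 and LAT-E2, against 63.3 to 198 CPM, median 121. No other mouse came near LAT-F5, and 0 of the 70 had a run at this place. Bcas2, a component of the spliceosome, stood at 425 CPM in LAT-F5 and 44.8 to 103 CPM in the other LAT mice, against 35.7 to 134 CPM, and passed in edgeR and limma-voom (adjusted p = 6.77e-06 and 0.0372). Trim33, a ubiquitin ligase gene of the TGF-beta pathway, stood at 526 CPM in LAT-F5 and 62.3 to 88.1 CPM in the other LAT mice, against 38.7 to 153.6 CPM. Nras passed in edgeR (log2 difference 1.57 ± 0.22, adjusted p = 5.31e-07) but not in limma-voom (adjusted p = 0.220). The edgeR calls of Nras, Bcas2 and Trim33 each held in 4 of the 5 fits without a LAT mouse. In the fit that lost it, the edgeR adjusted p was 0.475 for Bcas2 and 0.932 for Trim33. The doubtful second tumour of LAT-F5 had 264 CPM of Nras and 125 CPM of Trim33.

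In LAT-E2 the run held 17 genes over 10.6 Mb of chromosome 4 (89137122 to 99763460), including Jun, the AP-1 transcription factor. Its first gene, Mtap, was higher in LAT-D3 and LAT-F5, at 187 and 343 CPM, than in LAT-E2, at 114 CPM. The second, Tusc1, was not raised in LAT-E2 (log2 ratio -0.42), and the next, Caap1, starts at 94500081. Jun stood at 3565 CPM in LAT-E2 and at 232, 157.3, 133 and 358 CPM in LAT-A2, LAT-D2, LAT-D3 and LAT-F5, against 27.7 to 8372 CPM, median 182. LAT-E2 alone was high among LAT mice, 7 of the 70 other mice carried a run at Jun, and 3 of these 7 were VUX mice. The call of Jun (log2 difference 1.76 ± 0.49, edgeR adjusted p = 0.0449) was lost and its direction turned without LAT-E2, at -0.26. Atg4c, an autophagy protease gene in the run, stood at 493 CPM in LAT-E2 and 5.19 to 18.2 CPM in the other LAT mice, against at most 227 CPM in the other strains.

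In LAT-A2 the run held 8 genes over 0.506 Mb of chromosome 5 (143403838 to 143909847), with a median log2 ratio of 1.98, and neighbours on both sides were raised by similar amounts. Kdelr2, a receptor that returns proteins to the endoplasmic reticulum, stood at 1863 CPM in LAT-A2 and 163 to 211 CPM in the other LAT mice, against at most 834 CPM. Rac1, a GTPase that drives membrane ruffling, stood at 1485 CPM in LAT-A2 and 402 to 453 CPM in the other LAT mice, against 256 to 1727 CPM, with a run at this place in 1 other mouse, Boon-I4. Rac1 did not pass (edgeR adjusted p = 0.450). In LAT-D2 the run held 3 matrix and calcium pump genes on chromosome 1, Atp2b4, Prelp and Fmod, and Prelp stood at 534 CPM in LAT-D2 and 2.10 to 44.6 CPM in the other LAT mice, against 3.36 to 1055 CPM. Fmod stood at 257 CPM in LAT-D2 and as high, at 252 CPM, in LAT-D3, and 0 of these 3 genes passed in edgeR, limma-voom or DESeq2 (edgeR unadjusted p of 0.137 to 0.301).

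Genes of cell types and pathways were called at about the rate of all genes. Of 675 genes tested in 42 lists, 11 passed in edgeR (1.63%), near the 1.67% over all genes tested. The calls fell in 10 lists, and 1 list, the ribosomal one, held a call in limma-voom. For comparison with the counts below, 10260 of all 20080 genes tested had a log2 difference above 0. At an unadjusted p under 0.05 in edgeR, 1436 of the 20080 were higher in LAT and 879 lower. All members of the endothelial and cell cycle lists had a log2 difference above 0, while most T cell, type I interferon and complement genes had one below 0, and 0 of these passed as lower in edgeR.

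Endothelial genes were high in LAT-A2 and LAT-D2. The summed level of 14 endothelial genes was 2450 CPM in LAT-A2, 1489 in LAT-D2, 337 in LAT-D3, 813 in LAT-E2 and 792 in LAT-F5, against 201 to 1555 CPM, median 605, so LAT-A2 exceeded all other mice. In all 14 genes the log2 difference was above 0, with a median of 0.83, and 1 passed in edgeR. This was Cldn5, a tight junction claudin, at 119 CPM in LAT-A2 and 9.50 to 30.7 CPM in the other LAT mice, against 0.205 to 41.7 CPM (log2 difference 1.73 ± 0.49, edgeR adjusted p = 0.0461). Cdh5, encoding VE-cadherin, stood at 613.03 CPM in LAT-A2 and 45.5 to 375 CPM in the other LAT mice, against 2.42 to 379 CPM (edgeR adjusted p = 0.235).

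Cell cycle genes gave 0 calls of 30 in edgeR and in limma-voom, although all 30 had a log2 difference above 0, with a median of 0.57, and 10 had an unadjusted p under 0.05 in edgeR. LAT-A2 was the highest LAT mouse in 14 and LAT-E2 in 15 of them. The summed level was 3831, 2792, 2462, 4068 and 2445 CPM in LAT-A2, LAT-D2, LAT-D3, LAT-E2 and LAT-F5, against 338 to 6728 CPM, median 2199. Every LAT mouse thus lay above the median of the others and inside their range. Mki67, the proliferation antigen Ki-67, stood at 629, 440, 209, 509.6 and 291 CPM, against 14.3 to 1527 CPM, median 259 (edgeR adjusted p = 0.679).

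Mesothelial identity genes gave 0 calls of 24 in edgeR and in limma-voom and 1 in DESeq2, with 3 at an unadjusted p under 0.05 in edgeR and a median log2 difference of -0.65. Msln, encoding the surface protein mesothelin, whose promoter drives the transgene, stood at 33.2, 53.1, 114, 2.61 and 20.7 CPM in the 5 LAT mice, against 0.633 to 1143 CPM, median 16.9 (edgeR adjusted p = 0.984). LAT-E2 was lowest. LAT-D2 was the highest LAT mouse in 11 of the 24 genes, among them the uroplakin genes Upk3b at 31.9 CPM and Upk1b at 26.6 CPM, and LAT-D3 in 9.

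Immune genes peaked in different LAT mice. Over all 20080 genes tested, the highest LAT mouse was LAT-A2 in 4325, LAT-D2 in 3354, LAT-D3 in 3972, LAT-E2 in 4273 and LAT-F5 in 4156. LAT-F5 was the highest LAT mouse in 24 of 26 T cell and cytotoxic genes, in 13 of 15 B and plasma cell genes, in 11 of 12 MHC class II genes and in 17 of 21 genes of interferon gamma chemokines and Gbp proteins. LAT-A2 was the highest in 14 of 25 type I interferon genes, 14 of 18 MHC class I genes and 9 of 20 inflammatory cytokine genes. LAT-D2 was the highest in 9 of 20 macrophage genes and LAT-D3 in 8 of 17 complement genes. The summed T cell level was 57.1, 76.96, 54.98, 39.2 and 170.4 CPM in LAT-A2, LAT-D2, LAT-D3, LAT-E2 and LAT-F5, against 15.8 to 2207 CPM, median 66.1. LAT-D2 and LAT-F5 lay above this median and LAT-A2, LAT-D3 and LAT-E2 below it, and the mouse at the upper end of the range was CC044-F4. In edgeR and limma-voom 0 of 26 T cell and 0 of 15 B cell genes passed, with 0 of either list at an unadjusted p under 0.05 in edgeR, and the median log2 differences were -0.77 and -0.38.

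Of 183 immunoglobulin variable genes tested, edgeR called 16 higher in LAT (8.74%, against 1.45% of all genes tested). All 16 were highest in LAT-F5, and 0 of them passed in limma-voom. Igkv17-121, a kappa chain segment, stood at 82.1 CPM in LAT-F5 and 0.0467 to 0.514 CPM in the other LAT mice, against 0 to 51.8 CPM. Igkv2-137 stood at 66.3 CPM in LAT-F5 and 0.0467 to 0.949 CPM in the other LAT mice, against 0 to 18.4 CPM.

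Of 13 neutrophil genes tested, 12 had a log2 difference above 0, with a median of 1.52 over the list, and 7 had an unadjusted p under 0.05 in edgeR. Their summed level was 1169, 1474, 1938, 94.6 and 1551 CPM in LAT-A2, LAT-D2, LAT-D3, LAT-E2 and LAT-F5, against 14.9 to 5194 CPM, median 162, so 4 LAT mice were high and LAT-E2 low. Most of this sum was Mmp9, gelatinase B, a protease also made by other cell types: it stood at 986, 1444, 1854, 77.9 and 1463 CPM, against 0.454 to 4957 CPM, median 99.6, with a log2 difference of 2.26 ± 0.78 (edgeR adjusted p = 0.180). The 2 calls in edgeR were granule genes at low levels that were highest in LAT-F5. Ltf, lactoferrin, stood at 7.41 CPM there and 0.0933 to 0.860 CPM in the other LAT mice, against 0 to 3.70 CPM, and Elane, neutrophil elastase, at 2.28 CPM there and 0 to 0.242 CPM in the others, against 0 to 1.56 CPM. Both passed in edgeR (adjusted p = 0.0183 and 0.00892) and neither in limma-voom or without LAT-F5 (edgeR adjusted p = 0.986 and 0.879).

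The calls of Oasl1, Cxcl2, Igf2 and Grb10 were each lost without the LAT mouse of highest level. Those of Oasl1 and Igf2 held in 4, and those of Cxcl2 and Grb10 in 3, of the 5 fits without a LAT mouse. Oasl1, an interferon-induced gene, stood at 258 CPM in LAT-A2 and 4.86 to 21.8 CPM in the other LAT mice, against 1.29 to 93.6 CPM, and 22 of the 25 type I interferon genes had a log2 difference below 0. Cxcl2, a neutrophil chemokine, stood at 41.8 CPM in LAT-A2 and 0.0933 to 3.75 CPM in the other LAT mice, against 0 to 224 CPM. Without LAT-A2 the log2 difference of both turned below 0, at -0.20 and -0.057. Igf2, an imprinted growth factor, stood at 389 CPM in LAT-D2 and 3.28 to 44.99 CPM in the other LAT mice, against 0.130 to 294 CPM. Grb10, an imprinted receptor adaptor, stood at 683 CPM in LAT-E2 and 10.4 to 144.7 CPM in the other LAT mice, against 2.94 to 653 CPM. Without these mice neither passed (edgeR adjusted p = 0.787 and 0.982).

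Complement genes had a median log2 difference of -1.46, with 0 of 17 called in edgeR, 0 in limma-voom and 5 lower in DESeq2, and 7 lower at an unadjusted p under 0.05 in edgeR. Liver genes moved the same way: all 19 hepatocyte genes lay below 0, with a median of -3.23, and their summed level was 94.7 to 397 CPM in LAT mice, against 62.1 to 426726 CPM, median 522, in the other strains. The part of liver tissue in the complement values was not tested. Adipocyte and skeletal muscle genes had medians of -2.28 and -3.14, with 0 calls in edgeR and limma-voom and 10 of 13 and 8 of 15 at an unadjusted p under 0.05 in edgeR. DESeq2 called 11 hepatocyte, 7 adipocyte and 6 skeletal muscle genes lower. LAT-A2 was the highest LAT mouse for all 4 Y-linked genes, at 184 CPM summed, against 5.81 to 26.8 CPM in the other LAT mice. In the other strains this sum ran from 2.19 to 922 CPM, with a median of 26.1.

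No chromosome stood out as a whole: median log2 differences per chromosome ran from -0.13 on chromosome 10 to 0.14 on chromosome 8. The spread among the 5 LAT mice was also in the middle of the strains. Over 11307 genes the median within-strain SD of log2 CPM was 0.459 in LAT, rank 9 of 17 strains, against 0.597 in LOX, the highest, and 0.327 in CC060, the lowest.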

How the data were processed

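RNA was measured by RNA-seq in whole tumours, from strand-specific mRNA libraries per the labels' protocols. The deposited table holds an estimated count per gene and tumour, in whole numbers and not normalized, which the authors made with kallisto 0.46.1 on the build GRCm38, per the submitters' processing notes, which also name DESeq2 and DESeq. The sources used here do not give settings, annotation release or whether counting used strand. Columns were joined to tumours by title. A single gene that was measured is not reported here.

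The LAT comparison, its members and the 42 gene lists (685 genes) were chosen with earlier results of these data known. Counts were summed over the tumours of a mouse, the replicate. Genes passing filterByExpr by strain (20080) were scaled by TMM and fitted in edgeR 4.0.16 (R 4.3.3, robust quasi-likelihood) with 1 coefficient per strain. The contrast was LAT minus the unweighted mean of the 16 strains, two-sided, with Benjamini-Hochberg adjusted p under 0.05. The median biological coefficient of variation was 56.4%. Log2 CPM used a prior count of 2. Strains held 3 to 7 mice. On simulated counts the test called 98% of genes changed by a log2 of 2 and 26% of those changed by 1, 82% and 12% when lowered by as much, and 0.0151% of unchanged genes. The simulated counts gave all genes the same dispersion and held no strain differences and no single extreme mice. These shares therefore need not hold for the measured counts.

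Named genes were, in each direction, the 12 of lowest p that passed in edgeR and limma-voom 3.58.1 with a log2 of at least 1, 5 CPM and all LAT mice on the same side of the other mice's median, leaving out pseudogenes and predicted genes; up to 8 non-overlapping genes at 5 CPM or more; Bap1; and called list members, at most 4 per list and direction. Genes of the chromosomal runs and the immunoglobulin and list examples without a call were chosen after their values were seen. Positions and sequences come from GENCODE M21 (GRCm38), where 35825 of 36118 gene IDs matched, and copies were aligned to parents with blastn 2.17.0. Alternatives were limma-voom, DESeq2 1.42.0, other scaling, no filter, other covariates, 1 group of all other mice, the 6 doubtful tumours kept, the deepest tumour per mouse, libraries with other tissue left out, and each LAT mouse or strain left out.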

Additional observations from a re-analysis of the deposited data

Results flagged for a closer look

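Among 33 genes checked, each at both ends, 5 had 1 LAT mouse far from the other 4, measured as the gap to the nearest mouse divided by the range of the 5 mice. The gap was 0.897 for Gdpd5, where LAT-D3 was low, and 0.772 for ENSMUSG00000118653, where LAT-A2 was low. It was 0.834 for Yap1, where LAT-D3 was high, 0.897 for Nras, where LAT-F5 was high, and 0.909 for Rac1, where LAT-A2 was high. Chance gives such a gap in about 1 in 20 groups. Yap1, Nras and Rac1 had been picked after their values were seen.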

How the results depend on the processing

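The count of genes higher in LAT, 292, was 116 with limma-voom, 193 with DESeq2, 45 with all other mice as 1 group and 485 with no filter on low counts (31581 genes tested). The count lower, 43, was 5 with 1 group, 12 with the 6 doubtful tumours kept and 302 with DESeq2. Without 1 LAT mouse the counts ran from 233 to 295 higher and 22 to 43 lower (26 without LAT-A2, 26 without LAT-D3, 22 without LAT-E2), and without 1 strain from 251 to 306 and 36 to 48. Of the 292 higher calls, limma-voom shared 105, DESeq2 184, 1 group 45 and no filter 283.

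The log2 difference of Bap1 was 0.41 with limma-voom, 0.38 with RLE scaling (edgeR adjusted p = 0.0555) and 0.37 with 1 group (edgeR adjusted p = 0.458), none of which called it. It ran from 0.31 to 0.53 without 1 LAT mouse, and from 0.39 to 0.46 without 1 strain, where it was called in 16 of 16 fits. Among the named genes direction reversed for Jun without LAT-E2 (-0.26, in a range of -0.26 to 2.04 over fits without a mouse or strain), and without LAT-A2 for Oasl1 (-0.20 to 2.34) and Cxcl2 (-0.057 to 2.84). Of 957 results for the 29 other named genes, 832 kept direction and call and 122 lost the call, and 10 genes kept it in every alternative. The causes were not tested. On the simulated counts, with 5 LAT mice, most changes of a log2 of 1 were not called. No paired analysis was possible because replicate numbers follow accession order and do not pair mice across strains.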
